A study of Homo sapiens with 4 samples.

Results

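The nuclear genes whose products transcribe mitochondrial DNA, process, stabilise and degrade its RNA, copy it and modify its tRNAs were examined in the human colon cancer line HCT116, treated or not treated with hydrogen peroxide (H2O2), a membrane-permeant oxidant. The members were 37 genes named by function, and earlier results of these data were known when they were chosen. Members were found by exact symbol in the table of 16376 genes that the authors deposited. Of these, 36 had a row. KIAA0391, which encodes the nuclease subunit of mitochondrial RNase P, had none and was not analysed here. Gene expression was measured by RNA-seq of poly(A)-selected RNA in 2 Control samples, which were untreated, and 2 H2O2 samples, and the labels give neither dose nor exposure time. All 4 samples carry the same cell line label, and separate cultures are not stated. The p-values therefore reflect the spread between these samples alone, and that spread may be technical.

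Human mitochondrial DNA encodes protein subunits of the respiratory chain together with the rRNAs and tRNAs needed to translate them, and every protein that reads and processes it is imported from the cytosol. A single-subunit RNA polymerase, POLRMT, starts at promoters bent open by TFAM and TFB2M and makes long polycistronic RNAs from both strands. These RNAs are cut mainly at the tRNAs that punctuate them, after which the mRNAs are polyadenylated, bound by LRPPRC and SLIRP, and eventually degraded. In many tissues the nuclear genes of this machinery are targets of the transcription factors NRF1 and GABP.

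The table held group means of counts divided by a size factor for each library, and the counts of the 4 libraries were recovered by solving each mean for 2 whole counts. Replicate numbers are not tied to these counts, and the libraries are named by depth, a deeper and a shallower one in each group. Library totals were 6858809 to 7365032 counts over the listed genes. Every direction below rests on reading the table's group A as Control and B as H2O2, the order in which its name lists them. The control libraries differed from each other by over 1.5-fold at 3.63% of 12118 genes with a mean of at least 50, the H2O2 libraries at 0.957%. Of 10 colon epithelial markers 8 were listed, with summed normalized counts of 7596 and 9026 in Control and 9432 and 9023 with H2O2, while CDX1 and LGALS4 had no row. Fibroblast markers were listed for 3 of 6 genes (COL1A1, COL3A1 and PDGFRB). Their sums were 1017 and 933 in Control and 813 and 754 with H2O2, so both H2O2 libraries lay below both Control libraries. Of 4 endothelial markers 1 was listed, KDR, at 6.71 and 6.16 in Control and 13.5 and 8.32 with H2O2. The leukocyte markers CD14 and CD68 were listed and summed to 8.63 and 17.5 in Control and 27.0 and 22.9 with H2O2. The part of these marker levels in the results below was not tested. PECAM1, VWF, CDH5, PTPRC, CD3E, COL1A2, DCN and LUM had no row.

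None of the 36 listed genes passed an adjusted p of 0.05 in the authors' deposited table, in either direction. Over all 16376 genes 7.19% passed that threshold, 2.58% higher and 4.62% lower with H2O2. limma (Benjamini-Hochberg adjustment), fitted to log2(normalized count + 1) of the recovered libraries, also called none of the 36, against 4.10% of all genes. Unadjusted p-values under 0.05 in the authors' test were found for 3 of the 36 members (PTCD1 higher, FASTKD1 and TRMU lower). This was a smaller share than the 19.6% of all genes. limma gave 5 of the 36 at that level (SLIRP, PTCD1 and SSBP1 higher, POLG and TRMU lower), also a smaller share than the 20.2% of all genes. The median log2 fold change of the members was 0.042 in the authors' deposited table, beside 0.00028 over all genes, with 20 members above 0 and 16 below. Single values ran from -0.43 for POLRMT to 0.40 for PTCD1 in the authors' deposited table. In bulk RNA such values are shares of each library, and a change in RNA per cell cannot be told apart from a change in the share of cells that express a gene.

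The libraries of a group were compared with those of the other for every member. For 13 members (36.1%) both H2O2 libraries lay above both Control libraries, against 26.3% of all genes. For 10 members (27.8%) both lay below, against 25.6% of all genes. For 12 of the 36 members the gap between the Control libraries was larger than the change with H2O2. Across all genes this held for 8211 of 16376.

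**Figure D1:**
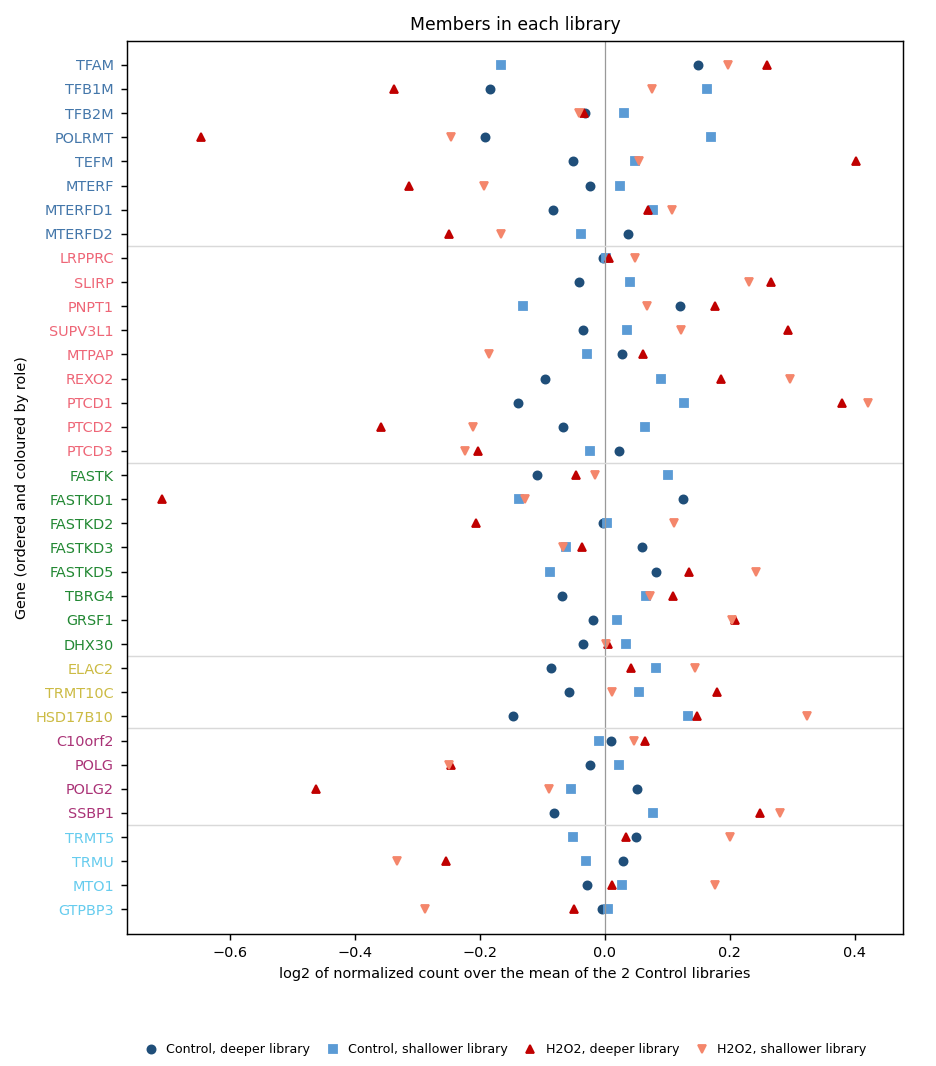
Normalized count of each member in each library as log2 of its ratio to the mean of the 2 Control libraries, with genes on the vertical axis ordered and coloured by role (transcription, RNA stability and decay, FASTK family and granule, tRNA end processing, DNA replication, tRNA modification). Most points lie close to 0, the Control libraries of TFAM, TFB1M and POLRMT lie well apart, and the H2O2 libraries of PTCD1 lie above both Control libraries.

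An adjusted p above the threshold does not show that a gene did not change, so the intervals matter here. The limma 95% interval of the change stayed within 1.5-fold in either direction for 30 of the 36 members and within 2-fold for all 36. Among the 10946 genes whose means lie in the range of the members, this held for 8284 and 10689. POLRMT, TEFM, MTERF, FASTKD1, PTCD1 and PTCD2 were the 6 with an interval that reached past 1.5-fold. These intervals are not widened for the number of members and rest on 2 libraries per group with a spread shared across genes. Standard errors were 0.10 to 0.22 on the log2 scale, with a median of 0.12.

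**Figure D2:**
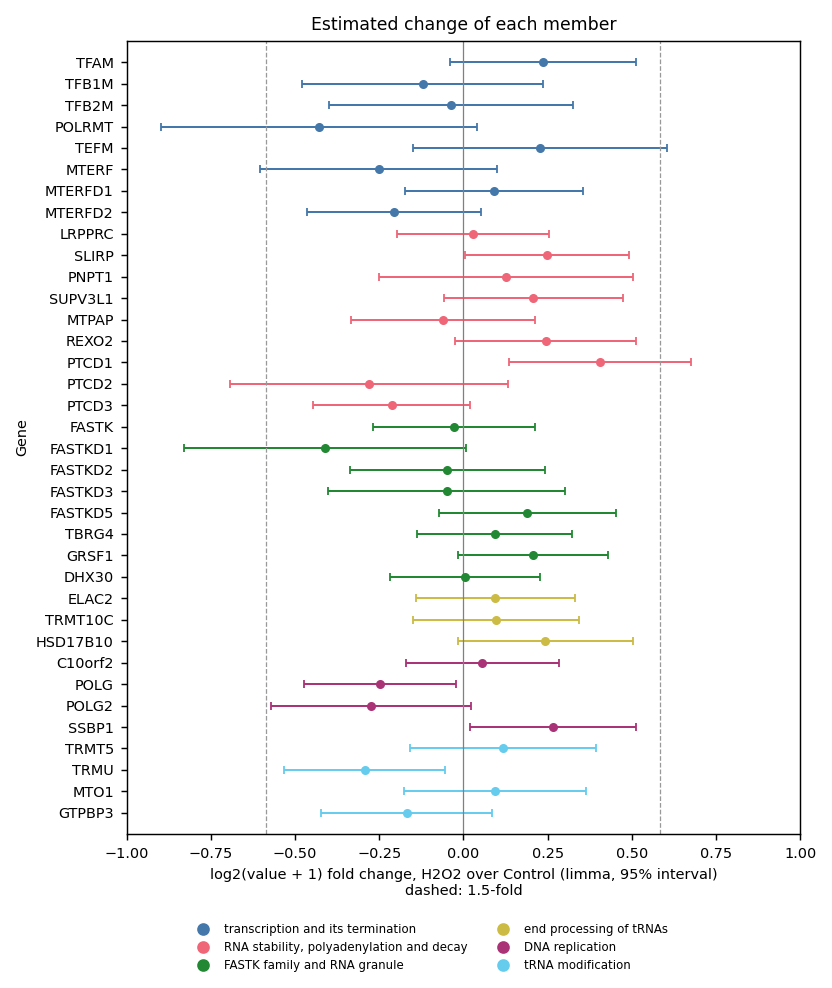
Estimated log2(value + 1) fold change of each member with H2O2 over Control from limma, with bars for the 95% interval, dashed lines at 1.5-fold and colours for the role. The intervals of 30 of 36 genes stay between the dashed lines, and those of POLRMT, FASTKD1 and PTCD2 reach furthest to the lower side.

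The calls changed when a Control library was left out. Without the shallower Control library limma called 9 members, 6 higher (PTCD1, HSD17B10, SSBP1, GRSF1, REXO2 and SLIRP) and 3 lower (TRMU, FASTKD1 and POLG2), in a fit that called 22.2% of all genes. Without the deeper Control library it called TFAM alone, in a fit that called 8.52% of all genes. None of these 10 was called in both fits. A fit with a lone Control library takes its spread from the H2O2 libraries, a pair closer to each other than the Control pair. With an H2O2 library left out the spread comes from the Control pair, and fewer of all genes were called than with every library kept. The lack of called members in those fits therefore says little about them.

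Transcription of the mitochondrial DNA was represented by 8 genes, of which 3 had a log2 fold change above 0 and 5 below. TFAM, the high-mobility-group protein that packages mitochondrial DNA and opens its promoters, had normalized counts of 488 and 392 in the deeper and the shallower Control library and 527 and 504 with H2O2. Both H2O2 libraries thus lay above both Control libraries, but the Control libraries spanned a wider range than the groups differed by. The limma estimate for TFAM was 0.24 ± 0.13 (SE) on the log2 scale (adjusted p = 0.318), and it was 0.39 (adjusted p = 0.0163) without the deeper Control library and 0.080 (0.680) without the shallower. POLRMT, the RNA polymerase itself, had 76.7 and 98.5 normalized counts in Control and 56.0 and 73.9 with H2O2. The H2O2 libraries were lower than either Control by a narrow margin at the nearest pair, and the estimate was -0.43 ± 0.22 (limma, adjusted p = 0.289). It was -0.61 and -0.25 when the deeper or the shallower Control library was left out, and -0.23 and -0.63 when the deeper or the shallower H2O2 library was, with no call in these 4 fits. POLRMT is an uncertain value, since 16.3% of the 75-base words of its longest transcript also occur in other genes' transcripts, including the pseudogene POLRMTP1.

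TFB2M, the methyltransferase-like factor that melts the promoter together with POLRMT, was nearly level, at 113.1 and 118 normalized counts in Control and 112.9 and 112.3 with H2O2 (log2 estimate -0.036 ± 0.17, limma, adjusted p = 0.927). Its paralog TFB1M, which methylates the small mitochondrial rRNA, was at -0.12 (log2 fold change, authors' deposited table), and within each group its libraries differed more than the groups did. TEFM, the elongation factor that lets POLRMT make long transcripts, had 112.1 and 120.1 normalized counts in Control and 153 and 120.7 with H2O2. The deeper H2O2 library alone stood apart from the other 3, and the estimate was 0.23 ± 0.18 (limma, adjusted p = 0.490), or 0.056 once that library was left out. An antisense gene covers 16.8% of the exonic length of TEFM. The MTERF family, which binds mitochondrial DNA or ribosomes to limit transcription and aid ribosome assembly, was at -0.25 for MTERF, 0.089 for MTERFD1 and -0.21 for MTERFD2 (log2 fold change, authors' deposited table). MTERFD2 is uncertain, because 51.0% of its exonic length overlaps SNED1 on the opposite strand in GENCODE release 29 and it is not stated whether counting used the strand.

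Promoters were read because NRF1 and GABP, an ETS factor, are known regulators of these genes. RefSeq promoters (GRCh38.p14, 250 bases before to 50 after a gene's start) were found for 32 of the 36 listed members and searched on both strands for GCATGCGC, a core of the NRF1 motif, and CCGGAAG, a core of the ETS motif. The members MTERFD1, FASTKD5, C10orf2 and MTO1 could not be matched to a single entry by symbol or synonym. The NRF1 core was present for 4 of 32 members (12.5%), namely POLRMT, TFB1M, TFB2M and MTPAP, against 6.02% of 11179 listed genes with a promoter and 3.05% of all 35116 promoters. The ETS core was present for 13 of 32 (40.6%), against 21.3% of those listed genes and 10.3% of all promoters. POLRMT and TFB1M held both. The 250 bases before the start are shown for the 3 of these genes that act in transcription, chosen for that role and for the match, with matches in capitals and in the direction of transcription. They are POLRMT (chr19:633538-633787, minus strand), TFB1M (chr6:155314485-155314734, minus strand) and TFB2M (chr1:246566262-246566511, minus strand).
POLRMT: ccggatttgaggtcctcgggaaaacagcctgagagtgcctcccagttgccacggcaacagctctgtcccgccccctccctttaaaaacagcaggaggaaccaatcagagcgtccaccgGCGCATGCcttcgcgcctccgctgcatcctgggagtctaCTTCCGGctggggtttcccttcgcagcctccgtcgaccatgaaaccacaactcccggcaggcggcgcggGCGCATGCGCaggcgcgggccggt
TFB1M: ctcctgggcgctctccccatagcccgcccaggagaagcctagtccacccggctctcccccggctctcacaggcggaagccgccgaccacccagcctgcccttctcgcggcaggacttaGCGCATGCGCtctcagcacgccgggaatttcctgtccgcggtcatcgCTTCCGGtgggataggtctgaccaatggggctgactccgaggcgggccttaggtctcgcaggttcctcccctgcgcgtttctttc
TFB2M: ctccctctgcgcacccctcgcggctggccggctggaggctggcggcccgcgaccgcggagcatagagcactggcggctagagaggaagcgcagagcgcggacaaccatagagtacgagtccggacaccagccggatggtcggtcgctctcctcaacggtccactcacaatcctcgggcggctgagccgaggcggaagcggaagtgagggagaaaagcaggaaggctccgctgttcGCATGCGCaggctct
POLRMT and TFB1M each hold a palindromic run of capitals in which the NRF1 core matches both strands at overlapping positions, and in both the ETS core reads on the strand opposite the gene. None of these 3 genes passed a test with H2O2 in the authors' deposited table. A match in these letters is a description of the sequence and not a bound site. Only exact matches were searched, so a promoter without one, such as that of TFAM, may still hold a variant of either motif.

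Among the 9 genes of RNA stability, polyadenylation and decay, 6 had a log2 fold change above 0 and 3 below. LRPPRC, the pentatricopeptide protein that keeps mitochondrial mRNAs stable and polyadenylated, had 2961 and 2970 normalized counts in Control and 2979 and 3065 with H2O2. The libraries lay close together, and the estimate of 0.027 ± 0.11 (limma, adjusted p = 0.910) has a 95% interval of -0.20 to 0.25. SLIRP, the small RNA-binding partner of LRPPRC, had 478 and 506 normalized counts in Control and 592 and 577 with H2O2. The groups did not overlap, and the estimate was 0.25 ± 0.11 (limma, adjusted p = 0.239).

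The degradosome pairs the exoribonuclease PNPT1 with the helicase SUPV3L1. PNPT1 had 119.8 and 101 normalized counts in Control and 125 and 115 with H2O2, so the groups overlapped (estimate 0.13 ± 0.18, limma, adjusted p = 0.726). SUPV3L1 had 345 and 362 in Control and 433 and 385 with H2O2, without overlap (0.21 ± 0.12, limma, adjusted p = 0.366). REXO2, which degrades the very short RNAs that remain, was at 0.24 (log2 fold change, authors' deposited table). MTPAP, the poly(A) polymerase, had 407 and 392 normalized counts in Control and 417 and 352 with H2O2, and the Control libraries lay between the H2O2 libraries (-0.062 ± 0.13, limma, adjusted p = 0.822). The pseudogene GOLGA2P6 overlaps 19.4% of the exonic length of MTPAP on the same strand, and an antisense gene overlaps 13.4%.

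The 3 PTCD genes encode pentatricopeptide proteins that act on mitochondrial RNA or ribosomes, and their values differed in sign. PTCD1, implicated in leucine tRNA levels and maturation of the large mitochondrial rRNA, had 349 and 419.8 normalized counts in Control and 500.025 and 515 with H2O2. Both H2O2 libraries lay above both Control libraries, and the Control libraries differed from each other by 0.27 on the log2 scale. PTCD1 had the smallest adjusted p of any member, 0.0595 in the authors' deposited table and 0.0869 in limma, with an estimate of 0.41 ± 0.13. At an adjusted p under 0.1 in the authors' deposited table it was the 1 member called, against 10.1% of all genes. It was also the 1 member that limma called (adjusted p = 0.0408) once a trend on exonic length was removed from each library, a fit that called 5.01% of 13905 genes. Values tilted with exonic length by 0.12 on the log2 scale per doubling in the deeper Control library and by -0.0036, -0.069 and -0.043 in the shallower Control and the deeper and shallower H2O2 libraries. The estimate for PTCD1 was 0.54 (adjusted p = 1.50e-04) without the shallower Control library and 0.27 (0.140) without the deeper. Its count is uncertain, since 41.0% of its exonic length is shared with the readthrough gene ATP5MF-PTCD1 and 15.8% overlaps BUD31 on the opposite strand. PTCD2 and PTCD3 were at -0.28 and -0.21 (log2 fold change, authors' deposited table).

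The FASTK family and the RNA granule proteins, which bind and mature RNAs close to the mitochondrial nucleoid, gave 4 values above 0 and 4 below, with a median of -0.014 in the authors' deposited table. FASTKD1 had 177 and 148 normalized counts in Control and 99.4 and 149 with H2O2. The deeper H2O2 library alone was low, and the shallower lay beside the shallower Control. Its estimate of -0.41 ± 0.20 (limma, adjusted p = 0.257) moved to -0.12 when the deeper H2O2 library was left out and to -0.70 when the shallower was. TBRG4, also called FASTKD4, had 1178 and 1293 normalized counts in Control and 1333 and 1299 with H2O2, with the shallower H2O2 library just above the shallower Control (0.092 ± 0.11, limma, adjusted p = 0.667). FASTKD5, needed for cuts in the precursor RNA that no tRNA marks, had 428 and 381 in Control and 444 and 478 with H2O2 (0.19 ± 0.12, limma, adjusted p = 0.401).

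The remaining FASTK genes differed little, at log2 fold changes of -0.031 for FASTK, -0.039 for FASTKD2 and -0.052 for FASTKD3 in the authors' deposited table. GRSF1, a G-rich RNA-binding protein of the granule, stood at 0.21 and the helicase DHX30 at 0.0033 in the authors' deposited table. The sign of DHX30 depends on the scaling, at -0.013 when libraries were scaled by their total counts.

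Ends of mitochondrial tRNAs are cut by RNase P at the 5′ side, with the subunits TRMT10C, HSD17B10 and KIAA0391, and by ELAC2 at the 3′ side. All 3 listed genes of this group had log2 fold changes above 0, and none passed in the authors' deposited table. TRMT10C, the tRNA methyltransferase subunit, had 633 and 684 normalized counts in Control and 745 and 664 with H2O2, with overlapping groups (0.097 ± 0.12, limma, adjusted p = 0.677). HSD17B10, a dehydrogenase that also serves as an RNase P subunit, had 848 and 1031 in Control and 1041 and 1176 with H2O2. The deeper H2O2 library was barely above the shallower Control, and the Control libraries differed by 0.28 on the log2 scale. The estimate was 0.24 ± 0.12 (limma, adjusted p = 0.279). Leaving out the shallower Control library gave 0.38 (9.90e-04), and leaving out the deeper gave 0.10 (0.591). ELAC2 had 1205 and 1354 normalized counts in Control and 1317 and 1414 with H2O2, also overlapping (0.095 ± 0.11, limma, adjusted p = 0.666).

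Replication genes were split in sign. POLG, the catalytic subunit of the mitochondrial DNA polymerase, had 1135 and 1172 normalized counts in Control and 972 and 970.5 with H2O2. The libraries of each group lay close together and the groups did not overlap (-0.25 ± 0.11, limma, adjusted p = 0.204). Its accessory subunit gene POLG2 had 443 and 412 in Control and 309.9 and 402 with H2O2 (-0.27 ± 0.14, limma, adjusted p = 0.283). Here the shallower H2O2 library lay close to the shallower Control, and the estimate was -0.088 when the deeper H2O2 library was left out and -0.46 when the shallower was. SSBP1, the single-strand DNA-binding protein of the replication fork, had 506 and 565 in Control and 636 and 650.1 with H2O2, without overlap (0.27 ± 0.12, limma, adjusted p = 0.211). C10orf2, the older symbol of the Twinkle helicase gene, was at 0.056 (log2 fold change, authors' deposited table).

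The tRNA modification group held TRMT5, a guanine methyltransferase, and 3 enzymes that modify the wobble base of mitochondrial tRNAs, TRMU, MTO1 and GTPBP3. TRMU, which adds sulfur to that base, had 706 and 677 normalized counts in Control and 580.1 and 549 with H2O2. The groups did not overlap, the estimate was -0.29 ± 0.11 (limma, adjusted p = 0.157), and the adjusted p was 0.195 in the authors' deposited table. MTO1 and GTPBP3, the partners that build the other part of the same modification, stood at 0.096 and -0.16 in the authors' deposited table, and TRMT5 at 0.12.

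**Figure D3:**
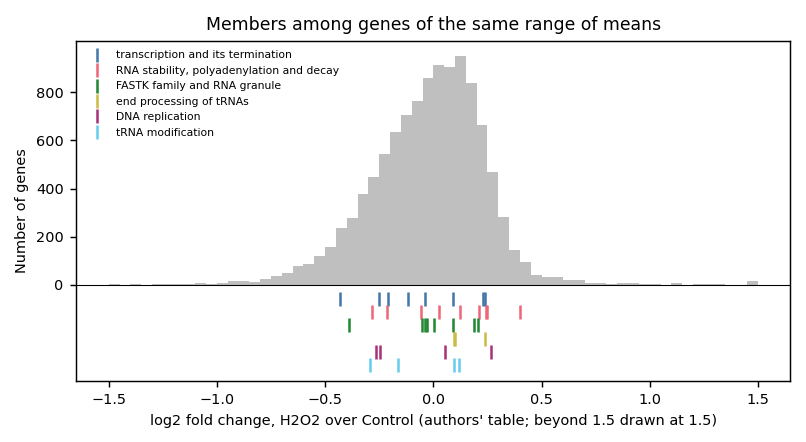
Histogram of the log2 fold change with H2O2 over Control in the authors' deposited table for the 10946 genes whose means lie in the range of the members, with number of genes on the vertical axis and values beyond 1.5 drawn at 1.5. Coloured ticks below show the 36 members by role, and all of them fall between -0.43 and 0.40.

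Other genes of mitochondrial gene expression were read from 5 lists of nuclear genes. Of 18 further DNA replication and nucleoid genes 2 were lower and none higher in the authors' deposited table, and of 20 translation and ribosome assembly factors 1 was lower. Of 15 nuclear regulators of mitochondrial biogenesis 1 was lower. None of 23 tRNA and rRNA modification genes (a list that also holds the MTERF family gene MTERFD3) and none of 8 RNA decay and proteolysis genes passed in the authors' deposited table. Unadjusted p-values under 0.05 in the authors' test were found for 7, 1, 2, 0 and 2 genes of the 5 lists in the order named, against 19.6% of all genes. By limma they were found for 7, 1, 3, 0 and 2, against 20.2%. Median log2 fold changes were 0.080, 0.15, -0.10, -0.0064 and -0.057 for the lists in the same order in the authors' deposited table.

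The 4 nuclear genes of these lists that passed were all lower, and more of all listed genes passed as lower (4.62%) than as higher (2.58%). ATAD3B, a nucleoid-associated ATPase of the inner membrane, had 754 and 802 normalized counts in Control and 500.025 and 538 with H2O2 (-0.58 ± 0.11, limma, adjusted p = 0.00896). Leaving out the deeper H2O2 library took its limma adjusted p to 0.165, and 13.9% of its words are shared with other genes, among them ATAD3A. PPARGC1B, a coactivator of NRF1 and of estrogen-related receptors, had 318 and 271 in Control and 168 and 208 with H2O2 (-0.65 ± 0.15, limma, adjusted p = 0.0268), and it also missed the threshold without the deeper H2O2 library (0.320) and after the length correction (0.0566).

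EXOG, a mitochondrial endonuclease and exonuclease, had 84.3 and 47.2 normalized counts in Control and 36.7 and 32.2 with H2O2. It passed in the authors' deposited table (adjusted p = 0.0184) but not in limma (-0.86 ± 0.28, adjusted p = 0.0995), and the estimate was -0.45 (0.476) without the deeper Control library and -1.27 (5.49e-04) without the shallower. MTG1, a GTPase of mitochondrial ribosome assembly, had 59.4 and 45.2 in Control and 27.0 and 29.1 with H2O2. Its adjusted p was 0.0489 in the authors' deposited table and 0.0794 in limma (-0.86 ± 0.26). The MTG1 estimate was -0.67 without the deeper Control library and -1.06 without the shallower. It was -0.81 and -0.91 without the deeper and the shallower H2O2 library, and 40.7% of its words are shared with other genes.

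The RNA that this machinery makes was read from the 13 protein-coding genes of mitochondrial DNA, each called an mRNA below. They are not 13 separate RNAs. MT-ATP8 and MT-ATP6 overlap by 46 bases and share an mRNA, as do MT-ND4L and MT-ND4, which overlap by 7. Of these, 8 passed as lower with H2O2 in the authors' deposited table and none as higher, against 4.62% and 2.58% of all genes. Their median log2 fold change over all 13 was -1.05, beside 0.00028 over all genes. The libraries were made from poly(A)-selected RNA, and whether the poly(A) tails of these mRNAs changed was not tested. MT-CO1, a catalytic subunit of cytochrome c oxidase, had 1397 and 1280 normalized counts in Control and 263 and 182 with H2O2 (-2.61 ± 0.15, limma, adjusted p = 1.12e-07). MT-ND5, a complex I subunit, had 6134 and 5518 in Control and 2915 and 2129 with H2O2 (-1.22 ± 0.14, limma, adjusted p = 1.67e-04). MT-ND6, the only one of the 13 encoded on the other strand, had 2002 and 1786 in Control and 960 and 596 with H2O2 (-1.32 ± 0.17, limma, adjusted p = 4.48e-04). It is not stated whether counting used the strand, so the count of MT-ND6 may hold RNA from the opposite strand. MT-ND4, MT-ND2, MT-CO2, MT-ND4L and MT-ATP6 also fell, with log2 fold changes of -1.15, -1.14, -0.82, -1.25 and -1.05 in that order in the authors' deposited table, and limma called the first 3 of these. With the deeper Control library left out, limma gave -0.70 (adjusted p = 0.0585) for MT-ND2, -0.62 (0.338) for MT-ND4L and -0.56 (0.421) for MT-ATP6. With the shallower Control library left out instead, it gave -1.46 (3.29e-08), -1.67 (1.51e-05) and -1.38 (0.00119).

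The other 5 passed neither in limma on all 4 libraries nor in the authors' deposited table, and they included the mRNAs with the highest counts per kilobase of exon. Per kilobase of exon the mean level was 22966 normalized counts for MT-ND3, 15016 for MT-ND1, 9259 for MT-CO3 and 7085 for MT-CYB, followed by 2545 for MT-ND6 and 2304 for MT-ND5. Levels were far lower for the rest, at 506 for MT-CO1, 308 for MT-ND4, 253 for MT-ATP8, 247 for MT-CO2, 149 for MT-ND4L, 94.6 for MT-ND2 and 54.5 for MT-ATP6. The log2 fold changes of MT-ND3, MT-ND1, MT-CO3 and MT-CYB were -0.19, -0.13, 0.25 and -0.18 in the authors' deposited table, and that of MT-ATP8 was -0.78 (adjusted p = 0.0625). Of these 5, 4 were called by limma when 1 library was left out. Without the deeper Control library these were MT-ND3 (-0.29, adjusted p = 0.00284) and MT-CYB (-0.26, 0.00854). Without the shallower Control library they were MT-CO3 (0.36, 3.27e-05) and MT-ATP8 (-1.18, 0.00116), and MT-ATP8 was also called when the deeper H2O2 library was left out (-1.15, 0.0327). All of the 13 mRNAs except MT-ATP6 and MT-ND4L had a lower value in the shallower H2O2 library than in the deeper. The median log2 difference, shallower minus deeper, was -0.37 over the 13 and 0.0018 over all genes. Shared sequence makes some of the mitochondrial mRNAs uncertain, since 36.6% of the words of MT-CO1, 34.4% of MT-ND2 and 28.0% of MT-ATP6 also occur in transcripts of pseudogenes. For MT-ND1, MT-CO3, MT-CO2 and MT-ND6 the share was 16.3%, 14.6%, 10.5% and 7.1%. No member of the nuclear machinery passed the threshold beside these 8 mRNAs, and whether the nuclear genes and the mitochondrial mRNAs differ in their change was not tested.

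**Figure D4:**
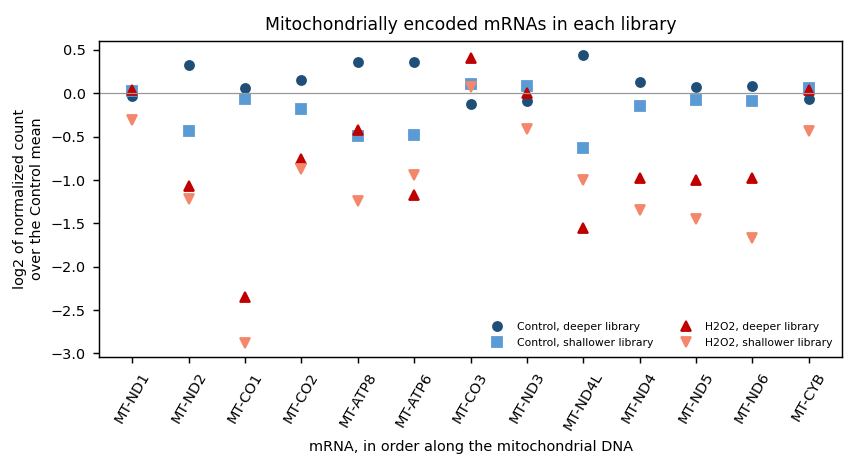
Normalized count of each of the 13 protein-coding mitochondrial genes in each library as log2 of its ratio to the mean of the 2 Control libraries, in order along the mitochondrial DNA. MT-CO1 lies lowest with H2O2, and MT-ND1, MT-CO3, MT-ND3 and MT-CYB lie near 0.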

How the data were processed

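RNA-seq libraries of HCT116 cells (2 Control, 2 H2O2) were made from poly(A)-selected RNA, per the labels' protocols. CASAVA 1.8, FastQC, Trim Galore, STAR, HTSeq, DESeq and hg19 are named in the submitters' processing notes, without roles. The annotation release was not given in the sources used here, nor was the strand setting. The deposited table holds a signal, which is the mean of size-factor-normalized counts as computed by the authors, a ratio of group means, its log2, and the authors' p-value and adjusted p-value, per the file headers.

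Library counts were solved from the group means, with 1 solution per gene within 1e-09 for all 16376 genes. The limma fit was tested on simulated counts, with changes set in genes with a mean of at least 50. It called 72% of 50 genes changed 1.5-fold and 96% of 50 changed 2-fold, with 13 false calls. Changes smaller than 1.5-fold were not simulated. The main result is the authors' adjusted p under 0.05. limma 3.58.1 (R 4.3.3, mean-variance trend, Benjamini-Hochberg adjustment over all genes) was run on log2(normalized count + 1), a scale that understates the change of low genes, with the alternatives given in the closing section. The deposited table lists no gene with a mean below 5.46.

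Members and lists were chosen with earlier results of these data known. Every listed member is named; values per library are given for the 6 smallest p-values of the authors' test and for 15 core factors, of which KIAA0391 had none. Exonic lengths and overlaps came from GENCODE release 29, on another build than the table. Shared sequence is the share, in percent, of the 75-base words in the longest transcript that also occur in transcripts of another gene. Promoters came from RefSeq (GRCh38.p14), matched by symbol or synonym. One of the cell type markers is not reported here.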

Additional observations from a re-analysis of the deposited data

How the results depend on the processing

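With 2 libraries per group, the limma intervals of 30 of 36 members stayed within 1.5-fold in either direction, against 8284 of 10946 genes in the same range of means. A p above the threshold does not show that smaller changes are absent. No member was called with an adjusted p under 0.01, a mean of at least 50, limma, pseudocounts of 0.5 and 5 or total-count scaling. Over all genes tested, the mean of at least 50 called 877 (7.24%) in the authors' test, and limma called 4.10%. The shares were 4.05% and 4.18% with the 2 pseudocounts, 4.09% with total-count scaling and 10.1% with an adjusted p under 0.1 in the authors' test. An adjusted p under 0.1 called 1 member, the length correction called 1, and leaving out a library called 0 to 9. The members' median log2 fold change ran from 0.011 to 0.052 with a library left out. All listed genes called numbered 642 (adjusted p under 0.01), 671 (limma), 663 and 685 (pseudocounts 0.5 and 5), 669 (total-count scaling), 697 (length correction) and 284 to 3641 (a library left out), against 1178. Genes called in the related lists numbered 7 to 32 with a library left out, against 12.

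Some values not called in the authors' test changed sign, and the cause was not tested. Of these, MT-ND3 (-0.29) and MT-CYB (-0.26) were called by limma without the deeper Control library. DHX30 was at -0.013 with total-count scaling. The length correction gave -0.040 for MTERFD1, 0.043 for MTPAP and -0.034 for TRMT10C. With a library left out the values ran from -0.031 to 0.038 for DHX30, -0.18 to 0.061 for MTPAP, -0.33 to 0.085 for TFB1M, -0.13 to 0.077 for FASTK, -0.21 to 0.11 for FASTKD2, -0.11 to 0.010 for FASTKD3, -0.31 to 0.040 for MT-ND1, -0.41 to 0.0072 for MT-ND3 and -0.43 to 0.037 for MT-CYB.

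No paired analysis was possible because the deposited table carries no replicate numbers.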

Other observations

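Levels of the members differed widely. Mean normalized counts per kilobase of exon ran from 6.79 for PTCD2 to 918 for HSD17B10. These levels use the union of a gene's exons in GENCODE release 29 and are rough where a gene has long, little-used exons.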
